A study of Mus musculus with 51 samples.

Results

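CD31+ cells sorted from mouse lungs 14 days after bleomycin were compared with CD31+ cells from lungs given saline. CD31 is the adhesion protein encoded by Pecam1 and the usual sorting mark of endothelial cells, which line blood and lymphatic vessels. The members are the 12 CD31+ libraries of 51 in the series, chosen by their labels, of which 7 came from bleomycin lungs and 5 from saline lungs. Animals of both groups were male C57/B6 mice that received bleomycin or its vehicle saline through the trachea. Bleomycin breaks DNA and is used to provoke lung fibrosis. The study sorted 3 further fractions from the same kind of lungs, CD45+ leukocytes, EpCAM+ epithelial cells and cells negative for all 3 markers (triple-negative, labelled Negative), each with 8 bleomycin and 5 saline libraries. The labels give neither the age of the mice nor the order of the gates, and the design text counts 8 bleomycin and 5 saline animals. Nothing in the labels says how animals and libraries correspond, so p-values measure only the spread between these libraries, part of which may be technical.

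The lung's capillaries hold general capillary cells, which act as the local stem cells of the microvasculature, and aerocytes, large cells specialised for gas exchange. Arterial, venous and lymphatic endothelial cells line the larger vessels, and each type has its own transcription factors and receptors. After injury, capillary cells can enter the cell cycle, and endothelial cells answer growth factors of the VEGF, angiopoietin, BMP, TGF-beta and Notch families.

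The endothelial markers Pecam1 and Cdh5 were high in every CD31+ library. Pecam1 averaged 3451 ± 302 CPM (counts scaled to the size of the library, ± SD, n = 7) in bleomycin CD31+ cells and 3486 ± 155 CPM (n = 5) in saline CD31+ cells, and the next highest group, saline CD45+ cells, had 219 ± 25.7 CPM. Levels set across fractions, here and later, are means ± SD normalised over all 51 libraries (n = 7 bleomycin and 5 saline for CD31+, 8 and 5 for each other fraction). Pecam1 (log2 fold change -0.03 ± 0.07 SE, adjusted p = 0.705) and Cdh5 (-0.07 ± 0.08, adjusted p = 0.466), which encodes the junction protein VE-cadherin, did not pass the test between bleomycin and saline. The summed level of 20 pan-endothelial genes was 25520 to 31850 CPM after bleomycin and 33150 to 37360 CPM after saline, so the ranges did not overlap. In bulk libraries, fewer cells of a type and less RNA per cell cannot be told apart.

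Totals ran from 22452175 to 29631350 counts in bleomycin CD31+ libraries and from 23933085 to 29746594 in saline ones. After genes with low counts were removed, 16075 genes were tested, of which 3890 (24.2%) were higher after bleomycin and 3948 (24.6%) lower at an adjusted p under 0.05. The median log2 fold change of all tested genes was -0.0060. In one direction or the other 48.8% of all genes passed, which is the background against which the share of a list has to be read. A list with shares near 24.2% higher and 24.6% lower is no result about its members. For 4243 genes (26.4%) no bleomycin library overlapped a saline one, with bleomycin above in 13.1% and below in 13.3% of all genes. On the principal components of these 12 libraries, the bleomycin and saline libraries lay on opposite sides of the first (60.1% of variance), and Bleomycin_CD31_621 stood apart on the second (13.8%). That library also had the most alveolar epithelial transcripts, described with the carry-over lists. The fit was repeated with the mean log2 level of 13 leukocyte markers as a covariate, called the leukocyte covariate here. The sum of these markers was 253 to 775 CPM after bleomycin and 177 to 261 CPM after saline, so the covariate differs between the groups itself. It left 2340 genes higher and 2242 lower. A fit with the mean log2 level of epithelial markers is called the epithelial covariate. Where one of these fits, the fit of all 51 libraries or the loss of a library moves a printed list count by more than 1.5-fold, the count under it is given.

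Genes that mark CD31+ cells fell more often than they rose. Of 620 tested genes at least 4 times higher in CD31+ cells than in every other fraction, by the mean of both treatments, 242 (39.0%) fell and 120 (19.4%) rose, with a median log2 fold change of -0.25. A change in CD31+ cells enters that mean and so helps to decide which genes are members. Of the 491 that met the 4-fold level in each treatment, 186 (37.9%) fell and 89 (18.1%) rose, with a median of -0.25. A further 65 met it in bleomycin only, 60 in saline only and 4 in neither alone. Of the 20 pan-endothelial genes, 8 fell and 3 rose (median -0.16), but 4 fell and 1 rose in the fit of 51 libraries, and 1 rose when Saline_CD31_649, Saline_CD31_651 or Saline_CD31_653 was left out. Below, each gene's levels are in CPM of the 12 CD31+ libraries, for bleomycin as the lowest, median and highest library and for saline in the order Saline_CD31_649 to Saline_CD31_653.

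Among the vessel receptors, Clec14a, a C-type lectin receptor involved in vessel growth, had 634.2, 777 and 962 CPM after bleomycin, against 1744, 2026, 1773, 2072 and 1952 CPM after saline. Every bleomycin library lay below every saline library, and the gene fell (log2 fold change -1.28 ± 0.11, adjusted p = 2.17e-06). Eng, the TGF-beta family co-receptor endoglin, had 1853, 2227 and 2310.0 CPM after bleomycin, against 2931, 3848, 3037, 3427 and 3559 CPM after saline, again with no overlap, and fell (-0.66 ± 0.08, adjusted p = 4.19e-05). Cd34, a sialomucin found on vessels and stromal cells, went the other way. It had 912, 1041 and 1157 CPM after bleomycin, against 415, 488, 477, 457 and 351 CPM after saline, without overlap (1.23 ± 0.10, adjusted p = 1.87e-06). Cd34 is also expressed in other fractions, and in CD31+ cells its bleomycin level was 248% of that in the next fraction.

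Transcription factors that hold endothelial identity were mixed, with 4 of 22 higher and 7 lower, against 24.2% and 24.6% of all genes. With the leukocyte covariate 3 were lower, and with the epithelial one 3. Erg, a master regulator of endothelial genes, did not pass (-0.04 ± 0.07, adjusted p = 0.705), whereas its ETS-family relative Fli1 had 87.1, 113 and 130.5 CPM after bleomycin, against 62.4, 77.5, 58.6, 80.8 and 61.4 CPM after saline. Those groups did not overlap, and Fli1 rose (0.70 ± 0.11, adjusted p = 2.01e-04). Nr2f2, which specifies veins and lymphatics, had 37.1, 44.1 and 69.0 CPM after bleomycin, against 31.8, 30.3, 28.1, 24.5 and 22.2 CPM after saline. Its groups did not overlap either (0.81 ± 0.15, adjusted p = 7.59e-04), although its level was 26.8% of that in the triple-negative fraction, where it is highest. Foxo1, which restrains endothelial growth, fell (-0.35 ± 0.08, adjusted p = 0.00201).

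Capillary genes leaned lower. Of 10 general capillary genes 5 fell and 1 rose, with 3 lower and 0 higher in the fit of 51 libraries. The higher count was 0 without Saline_CD31_653 and 2 without Bleomycin_CD31_622. Plvap, which forms the diaphragms of fenestrae and caveolae, had 1732, 1804 and 2043 CPM after bleomycin, against 2514, 3965, 3444, 3913 and 3522 CPM after saline. Glp1r, the receptor for the peptide GLP-1, had 71.6, 93.2 and 119 CPM after bleomycin, against 229.6, 203, 176, 196 and 232 CPM after saline. Neither gene's groups overlapped, and both fell (log2 fold changes -0.91 ± 0.10 and -1.12 ± 0.12, adjusted p = 1.43e-05 and 1.43e-05). Both were among the 620 CD31-enriched genes.

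Of 12 aerocyte genes, 2 rose, 1 fell and 9 did not pass, including Car4, a carbonic anhydrase (-0.30 ± 0.17, adjusted p = 0.157), and Ednrb, an endothelin receptor (-0.52 ± 0.26, adjusted p = 0.123). Prx, the scaffold protein periaxin, had 972, 1341 and 1706 CPM after bleomycin, against 891, 756, 872, 744 and 637.5 CPM after saline. The groups did not overlap and Prx rose (0.76 ± 0.14, adjusted p = 6.03e-04). Cyp4b1, a cytochrome P450, had 329, 539.7 and 786 CPM after bleomycin, against 1459, 1519, 1431, 1489 and 1483 CPM after saline, and fell without overlap (-1.40 ± 0.20, adjusted p = 1.07e-04). With the leukocyte or the epithelial covariate 1 aerocyte gene was called higher, and without Bleomycin_CD31_626 2 were called lower.

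Arterial and venous genes also split. The shares over all genes, for reading both lists, were 24.2% higher and 24.6% lower. Of 18 arterial genes 6 rose and 8 fell, against 2 and 4 in the fit of 51 libraries, and 5 fell with the leukocyte covariate. Unc5b, a netrin receptor of arteries and sprouting vessels, rose and had 180.4, 213 and 299 CPM after bleomycin, against 88.0, 120.0, 108, 94.2 and 84.2 CPM after saline (1.17 ± 0.13, adjusted p = 2.09e-05, no overlap). Bmx, a kinase of arterial endothelium, fell (-1.06 ± 0.14, adjusted p = 6.82e-05), as did Tm4sf1, a membrane protein of nascent vessels (-0.75 ± 0.08, adjusted p = 1.01e-05). Of 13 venous genes 3 rose and 7 fell, with a median log2 fold change of -0.51, with 4 lower in the fit of 51 libraries and 1 higher with the leukocyte covariate. Vcam1, which catches leukocytes on activated venules, had 35.8, 36.9 and 56.1 CPM after bleomycin, against 135, 129, 155, 181 and 102 CPM after saline. The groups lay far apart (-1.73 ± 0.15, adjusted p = 4.25e-06).

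Vcam1 is also made by triple-negative cells, where it averaged 375 ± 38.3 CPM after bleomycin and 241 ± 56.1 CPM after saline. The contrast of its change in CD31+ cells with the mean change of the other 3 fractions was -2.18 ± 0.34 on the log2 scale (adjusted p = 3.41e-06). In that contrast, fitted over all 51 libraries, 3091 of 19841 genes (15.6%) were above and 2331 (11.7%) below zero. For a gene found almost solely in CD31+ cells it also contains the level of endothelial RNA in the other fractions. Pecam1 itself had a difference of 0.84 ± 0.30 (adjusted p = 0.0302). Differences printed here for CD31-enriched genes carry the same limit.

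Lymphatic genes rose as a group. Of 10 tested members 9 rose and 1 fell, with a median log2 fold change of 1.91, and Ccl21a was not tested. Prox1, the transcription factor that sets lymphatic identity, had 37.7, 47.0 and 116 CPM after bleomycin, against 14.8, 9.68, 13.7, 5.59 and 4.97 CPM after saline. Reln, a secreted glycoprotein of lymphatic endothelium, had 92.0, 129 and 283 CPM after bleomycin, against 58.2, 35.2, 53.4, 16.6 and 18.3 CPM after saline. Mmrn1, a matrix protein stored in platelets and lymphatic cells, had 194, 265 and 538 CPM after bleomycin, against 89.0, 64.3, 94.8, 35.96 and 37.6 CPM after saline.

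For all 3 the groups did not overlap, with log2 fold changes of 2.51 ± 0.37, 2.04 ± 0.39 and 2.20 ± 0.33 (adjusted p = 1.89e-04, 0.0011 and 2.05e-04). Bleomycin_CD31_622 was the highest library for each of them, and without it the changes of Prox1, Reln and Mmrn1 were 2.23, 1.82 and 2.001. Flt4, the receptor for VEGF-C, had 406, 439 and 736 CPM after bleomycin, against 309.7, 293, 300.5, 268 and 287 CPM after saline, a smaller rise with no overlap (0.71 ± 0.13, adjusted p = 9.07e-04), and without the same library its change was 0.58. Lyve1, a hyaluronan receptor of lymphatic capillaries that other lung endothelial cells also express, was the member that fell (-0.65 ± 0.18, adjusted p = 0.0103). In the fit of all 51 libraries Lyve1 was not called (adjusted p = 0.186). Itga9, an integrin needed for lymphatic valves, rose by 0.92 ± 0.16 (adjusted p = 4.93e-04), and its change was above that of the other fractions (1.32, adjusted p = 6.70e-07).

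**Figure D1:**
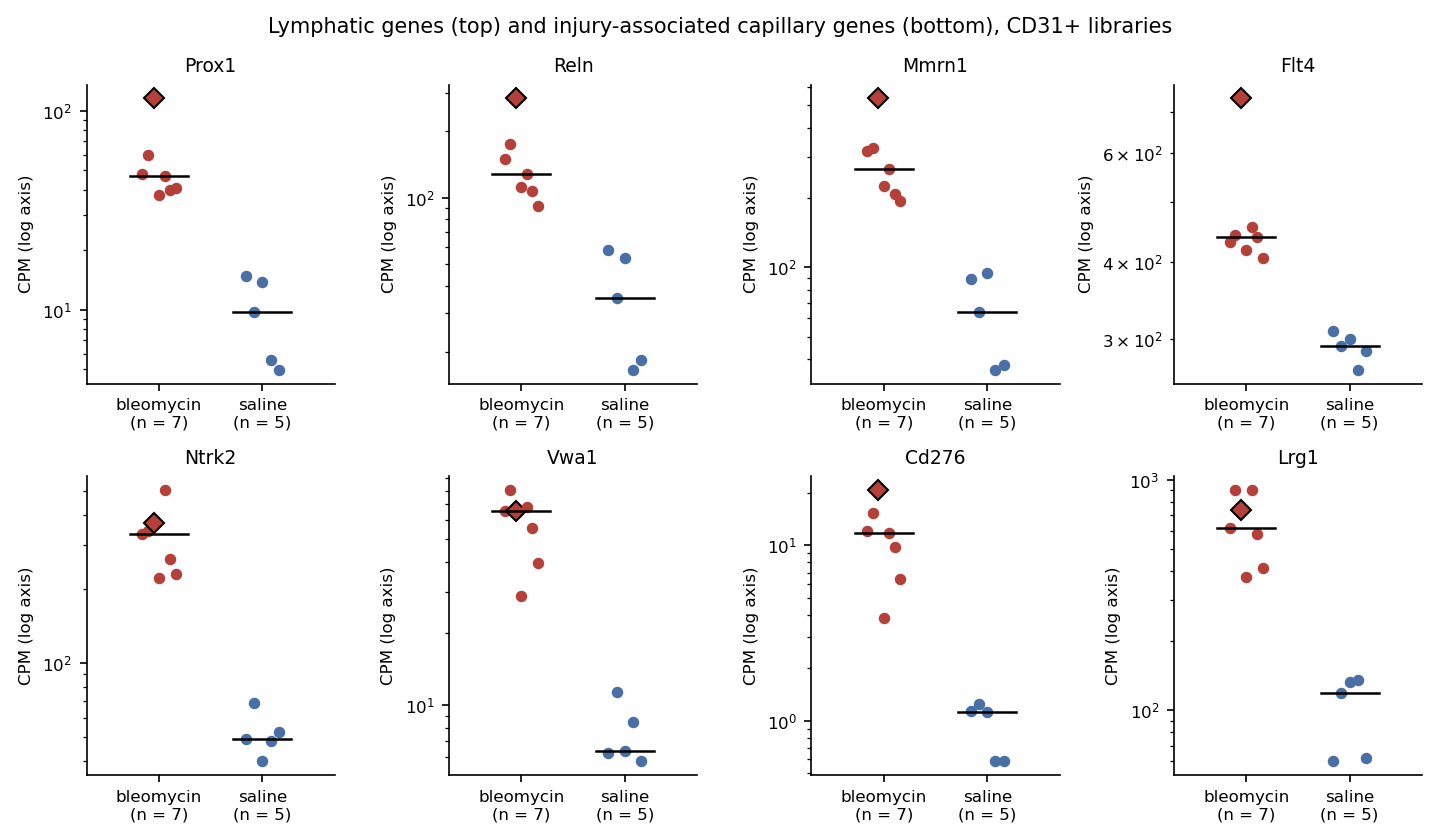
Levels in CPM (log axis) of 8 genes in each CD31+ library, bleomycin (7, left) and saline (5, right), for lymphatic genes (top row) and genes reported in capillaries after lung injury (bottom row); points are libraries and bars are medians. In each of the 8 panels every bleomycin library lies above every saline library, and Bleomycin_CD31_622, drawn as a diamond, is the highest for Prox1, Reln, Mmrn1 and Flt4.

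All 7 genes of a list reported in capillaries after lung injury rose, with a median log2 fold change of 2.65. Like all the lists here, it was chosen with earlier results of these data known, so its shared direction is no independent result. Ntrk2, the receptor for the neurotrophin BDNF, had 220.5, 333 and 506 CPM after bleomycin, against 49.3, 68.6, 39.9, 48.4 and 52.3 CPM after saline. Vwa1, an extracellular matrix protein, had 28.6, 65.6 and 80.7 CPM after bleomycin, against 6.26, 11.3, 6.39, 8.43 and 5.76 CPM after saline. Cd276, the immune checkpoint protein B7-H3, had 3.83, 11.8 and 20.8 CPM after bleomycin, against 1.13, 1.24, 1.12, 0.584 and 0.585 CPM after saline. In each case every bleomycin library exceeded every saline library (log2 fold changes 2.65 ± 0.22, 2.91 ± 0.27 and 3.60 ± 0.42, adjusted p = 3.43e-06, 7.15e-06 and 3.20e-05).

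Averages in triple-negative cells ran the other way. Ntrk2 averaged 36.8 ± 10.6 CPM in bleomycin triple-negative cells and 117 ± 34.5 CPM in saline ones, and Vwa1 averaged 16.1 ± 2.87 CPM in bleomycin and 78.0 ± 22.8 CPM in saline triple-negative cells. The CD31+ change exceeded the mean of the other fractions by 2.33 ± 0.36 for Ntrk2 (adjusted p = 2.68e-06), 2.95 ± 0.26 for Vwa1 (adjusted p = 6.93e-12) and 2.65 ± 0.32 for Cd276 (adjusted p = 1.65e-08). Lrg1, a secreted glycoprotein that modifies endothelial TGF-beta signalling, had 379, 615.5 and 907 CPM after bleomycin, against 59.8, 118, 133, 135 and 62.1 CPM after saline. It rose without overlap (2.67 ± 0.31, adjusted p = 2.96e-05), but its change did not pass the test against the other fractions (0.65, adjusted p = 0.208). The same held for the vessel collagen Col15a1, which rose by 1.47 ± 0.22 (adjusted p = 1.77e-04) and differed by 0.48 (adjusted p = 0.407).

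Genes of tip cells, which lead vessel sprouts, did not move together. Of 12, 4 rose and 3 fell, against 24.2% and 24.6% of all genes. Esm1, a proteoglycan of tip cells, had 5.34, 7.80 and 14.5 CPM after bleomycin, against 71.0, 49.6, 48.0, 67.6 and 107 CPM after saline. Cxcr4, the receptor for the chemokine CXCL12, had 11.2, 24.1 and 32.6 CPM after bleomycin, against 82.6, 93.6, 59.2, 87.2 and 154 CPM after saline. Both fell with no overlap (-2.94 ± 0.27 and -2.07 ± 0.27, adjusted p = 5.45e-06 and 7.64e-05). Pdgfb, by which endothelial cells recruit pericytes, rose (0.75 ± 0.11, adjusted p = 1.16e-04), and so did the basement membrane protein Nid2 (1.85 ± 0.24, adjusted p = 6.76e-05). Apln, the peptide apelin of sprouting vessels, did not pass (0.15 ± 0.24, adjusted p = 0.613). Cxcr4 stood at 11.6% of its bleomycin CD45+ level.

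Cell division genes rose throughout the list. All 25 mitosis genes rose, and in all 25 every bleomycin library exceeded every saline library, with a median log2 fold change of 4.14. Of 20 genes of the G1/S transition and DNA replication, 19 rose (median 1.39). Among the mitosis genes, Cdk1 is the kinase that drives entry into mitosis, Ccnb2 one of its cyclins, and Top2a the enzyme that untangles sister chromatids. Their promoters are shown because CCAAT boxes and the cell cycle genes homology region (TTTGAA) are the promoter features by which such genes are known to be timed. Each run below is the 200 bases before the gene's start, from RefSeq on GRCm38.p6, written 5′ to 3′ on the gene's strand. Capitals mark CCAAT or its reverse complement ATTGG, and TTTGAA or its reverse complement TTCAAA, which do not overlap in these runs. Cdk1 lies at chr10:69352913-69353112 (minus strand), Ccnb2 at chr9:70421555-70421754 (minus) and Top2a at chr11:99024190-99024389 (minus).
Cdk1: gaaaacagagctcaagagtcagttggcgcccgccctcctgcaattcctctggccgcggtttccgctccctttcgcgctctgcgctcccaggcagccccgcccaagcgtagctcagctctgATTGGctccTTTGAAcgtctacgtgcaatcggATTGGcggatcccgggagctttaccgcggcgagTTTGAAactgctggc
Ccnb2: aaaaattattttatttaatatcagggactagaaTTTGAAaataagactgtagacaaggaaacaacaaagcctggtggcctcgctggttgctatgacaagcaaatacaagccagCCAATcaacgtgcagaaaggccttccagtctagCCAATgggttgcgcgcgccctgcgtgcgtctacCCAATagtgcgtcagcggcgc
Top2a: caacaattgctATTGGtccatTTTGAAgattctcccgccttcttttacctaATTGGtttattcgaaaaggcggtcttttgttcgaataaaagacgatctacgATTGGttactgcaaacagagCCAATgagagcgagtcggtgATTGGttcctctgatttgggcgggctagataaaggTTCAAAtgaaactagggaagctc

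The table of promoters held 20 of the 25 mitosis genes. In the 250 bases before the start, CCAAT was found on either strand in 17 of the 20 (85.0%), against 37.5% of the promoters of all 27025 genes in the table. TTTGAA was found in 8 of the 20 (40.0%), against 18.3% of all. A match describes these letters and not a binding site.

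Cdk1 had 24.4, 36.01 and 69.1 CPM after bleomycin, against 1.62, 1.82, 2.41, 1.38 and 2.30 CPM after saline (4.53 ± 0.32, adjusted p = 1.87e-06). Ccnb2 had 18.6, 25.9 and 47.4 CPM after bleomycin, against 1.81, 1.998, 1.77, 1.67 and 1.504 CPM after saline (4.14 ± 0.29, adjusted p = 1.84e-06). The gap between the groups was wide for both genes. Across fractions, Cdk1 averaged 44.5 ± 17.4 CPM in bleomycin CD31+ cells, 30.9 ± 5.13 CPM in bleomycin CD45+ cells, 32.8 ± 6.91 CPM in bleomycin EpCAM+ cells and 19.7 ± 6.85 CPM in bleomycin triple-negative cells. The CD31+ average was the highest of the 4. The CD31+ change exceeded the mean of the other fractions for 23 of the 25 mitosis genes, against 15.6% of all genes, with a median difference of 1.81. Prc1, which bundles the spindle midzone, differed by 2.40 ± 0.27 (adjusted p = 4.21e-09), and Bub1, a spindle checkpoint kinase, by 2.43 ± 0.31 (adjusted p = 6.43e-08). That mean joins unlike changes, as for Pbk, a gene of dividing cells outside the list. From saline to bleomycin, Pbk averaged 0.651 and 19.7 CPM in CD31+ cells and 0.269 and 4.88 CPM in triple-negative cells. In CD45+ cells it averaged 3.93 and 5.99 CPM, and in EpCAM+ cells 1.24 and 10.5 CPM. Hrob, another such gene, averaged 0.174 and 5.24 CPM in CD31+ cells and 0.0907 and 2.70 CPM in triple-negative cells. The CD31+ change was not tested against single fractions.

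Among replication genes, E2f8, a repressor of the E2F family, had 10.01, 15.9 and 24.4 CPM after bleomycin, against 1.06, 0.792, 1.21, 0.584 and 0.835 CPM after saline, without overlap (4.18 ± 0.30, adjusted p = 1.84e-06). Ccne1, the cyclin of S phase entry, rose by 3.56 ± 0.35 (adjusted p = 6.35e-06). Inhibitors of the cycle did not form a block: of 22 p53 targets and cell cycle inhibitors, 7 rose and 4 fell, against 24.2% and 24.6% of all genes. With the leukocyte covariate 4 were higher. Cdkn2c, which inhibits CDK4 and CDK6, had 25.2, 45.1 and 70.7 CPM after bleomycin, against 11.1, 9.51, 10.5, 10.9 and 9.27 CPM after saline and rose (2.25 ± 0.24, adjusted p = 1.48e-05). Cdkn2b, a relative induced by TGF-beta, had 6.74, 9.42 and 14.8 CPM after bleomycin, against 26.0, 25.1, 23.0, 21.6 and 17.5 CPM after saline and fell (-1.15 ± 0.20, adjusted p = 5.42e-04). Neither gene's groups overlapped. Cdkn2b averaged 19.04 ± 5.63 CPM in bleomycin and 8.05 ± 0.969 CPM in saline EpCAM+ cells, and the difference between fractions was -2.39 ± 0.28 (adjusted p = 9.73e-09). In that contrast 10 of the 22 p53 targets and inhibitors were below the other fractions, against 11.7% of all genes, and 2 were above. Among those below were Phlda3, an inhibitor of AKT (-1.54, adjusted p = 4.21e-08), and Aen, a nuclease of apoptosis (-0.74, adjusted p = 3.04e-08), while both rose within CD31+ cells (0.53 and 0.47, adjusted p = 0.00226 and 9.55e-04). With the leukocyte covariate the call of Phlda3 was lost (adjusted p = 0.0579).

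Myc, the transcription factor that drives growth and ribosome production, had 24.2, 29.3 and 51.5 CPM after bleomycin, against 12.5, 9.88, 8.28, 9.01 and 8.48 CPM after saline, with no overlap (1.80 ± 0.19, adjusted p = 1.31e-05). In the other fractions the averages ran the other way. Myc averaged 70.6 ± 6.62 CPM in bleomycin and 161 ± 54.2 CPM in saline CD45+ cells, and 63.6 ± 9.65 CPM in bleomycin and 158 ± 42.0 CPM in saline triple-negative cells. The difference was 3.01 ± 0.23 (adjusted p = 9.36e-14). Of 13 ribosome biogenesis genes 5 rose and none fell, while 8 did not pass. Those that rose included the nucleolar proteins Npm1 (0.60 ± 0.07, adjusted p = 1.73e-05) and Ncl (0.43 ± 0.07, adjusted p = 3.46e-04).

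VEGF ligands and receptors changed in both directions, 4 of 10 higher and 5 lower (2 lower with the leukocyte covariate, 3 with the epithelial one and 3 in the fit of 51 libraries). Among ligands, Vegfa had 900.1, 961 and 1083 CPM after bleomycin, against 1211, 1624, 1311, 1453 and 1429 CPM after saline and fell (-0.53 ± 0.08, adjusted p = 1.03e-04). Pgf, placental growth factor, had 11.2, 14.1 and 23.1 CPM after bleomycin, against 3.40, 4.68, 3.86, 2.09 and 1.67 CPM after saline and rose (2.25 ± 0.27, adjusted p = 3.40e-05). The groups overlapped for neither. Among receptors, Nrp2, the co-receptor of VEGF-C, had 188, 229.7 and 442 CPM after bleomycin, against 85.9, 75.0, 82.8, 80.2 and 58.9 CPM after saline, without overlap (1.74 ± 0.21, adjusted p = 3.73e-05). Kdr, the main VEGF-A receptor, did not pass (-0.31 ± 0.14, adjusted p = 0.0761), and without Bleomycin_CD31_626 it did (adjusted p = 0.0284).

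In the angiopoietin pathway the receptor Tek (Tie2) had 1098, 1203 and 1311 CPM after bleomycin, against 1809, 1942, 1750.0, 1980.0 and 1968 CPM after saline. It fell with a wide gap between the groups (-0.65 ± 0.06, adjusted p = 3.91e-06). Its ligand Angpt1, which is made mainly by mesenchymal cells, had 2.10, 3.02 and 3.72 CPM after bleomycin, against 11.1, 8.40, 5.63, 6.84 and 8.35 CPM after saline, and also fell (-1.43 ± 0.18, adjusted p = 4.46e-05). Angpt1 in bleomycin CD31+ cells was 3.31% of its level in the triple-negative fraction, and the part of carried-over RNA in its change was not tested. Ptprb, the phosphatase that acts on Tie2, fell in the fit of 12 libraries (-0.74 ± 0.08, adjusted p = 2.08e-05) but was not called in that of 51 (adjusted p = 0.0762).

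Notch genes leaned lower, 7 of 16 against 2 higher. The lower members include Notch3, also a pericyte marker, whose bleomycin CD31+ level was 6.04% of that in triple-negative cells. Hey2, a Notch target gene of arteries, fell (-1.49 ± 0.24, adjusted p = 2.68e-04). The arterial ligand Dll4 had 177, 291 and 367 CPM after bleomycin, against 480.2, 500.4, 421, 449.8 and 565 CPM after saline, without overlap (-0.74 ± 0.15, adjusted p = 0.00142). Its call was lost with the leukocyte covariate (adjusted p = 0.0629) and in the fit of 51 libraries (adjusted p = 0.051), where the list had 1 and 4 lower members. With the epithelial covariate it had 3 lower members, and in the fit of 51 libraries 1 higher member. Jag2, another ligand, rose (0.48 ± 0.09, adjusted p = 0.00108).

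The BMP and ALK1 pathway, which keeps lung vessels quiescent, had 10 of 17 members lower and 2 higher, with a median log2 fold change of -0.58. Among ligands, Bmp6 had 272, 346 and 494 CPM after bleomycin, against 682, 682, 678, 696 and 788 CPM after saline, without overlap (-0.95 ± 0.13, adjusted p = 7.51e-05). Bmp4 fell too (-1.23 ± 0.15, adjusted p = 4.13e-05), at 25.1% of its bleomycin EpCAM+ level. Among receptors, Acvrl1 (ALK1) had 2140.0, 2609 and 2896 CPM after bleomycin, against 3437, 4073, 3466, 3699 and 3221 CPM after saline (-0.47 ± 0.09, adjusted p = 8.36e-04). Bmpr2, the receptor mutated in inherited pulmonary hypertension, had 945, 1109 and 1530.0 CPM after bleomycin, against 1780.0, 1662, 1547, 1741 and 1778 CPM after saline (-0.58 ± 0.10, adjusted p = 5.45e-04). All bleomycin libraries lay below all saline libraries for both receptors.

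The signal-carrying SMADs of the same pathway did not share that direction. Smad1 had 89.4, 106 and 131 CPM after bleomycin, against 49.4, 52.0, 59.3, 57.4 and 46.7 CPM after saline and rose (0.99 ± 0.10, adjusted p = 1.14e-05). Smad5 rose as well (0.39 ± 0.06, adjusted p = 3.08e-04). Smad9 had 2.43, 3.38 and 6.62 CPM after bleomycin, against 13.6, 15.7, 11.7, 13.2 and 14.4 CPM after saline and fell (-1.84 ± 0.20, adjusted p = 1.21e-05). No overlap was seen for any of the 3. All 3 also differed from the mean change of the other fractions, by 0.88 for Smad1 (adjusted p = 2.42e-09), 0.59 for Smad5 (adjusted p = 6.22e-09) and -1.13 for Smad9 (adjusted p = 0.00186). The target genes Id2 (-0.78 ± 0.14, adjusted p = 6.05e-04) and Id3 (-0.60 ± 0.12, adjusted p = 9.62e-04), which block differentiation factors, fell. Id2 stood at 13.8% of its CD45+ level.

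TGF-beta genes leaned higher, 10 of 18 against 3 lower. Tgfbr2, the type II receptor, had 398, 512 and 644.2 CPM after bleomycin, against 283, 311, 346, 334 and 274 CPM after saline (0.71 ± 0.12, adjusted p = 2.74e-04). Inhbb, an activin subunit, had 31.7, 69.6 and 120.3 CPM after bleomycin, against 11.7, 16.6, 13.2, 13.3 and 17.0 CPM after saline (2.38 ± 0.27, adjusted p = 3.00e-05). Neither gene overlapped between the groups, and both rose. The co-receptor Tgfbr3 fell (-0.62 ± 0.11, adjusted p = 7.24e-04). The ligand Tgfb3 rose (1.16 ± 0.21, adjusted p = 6.97e-04) at 7.43% of its triple-negative level. With the leukocyte covariate 6 members were higher.

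**Figure D2:**
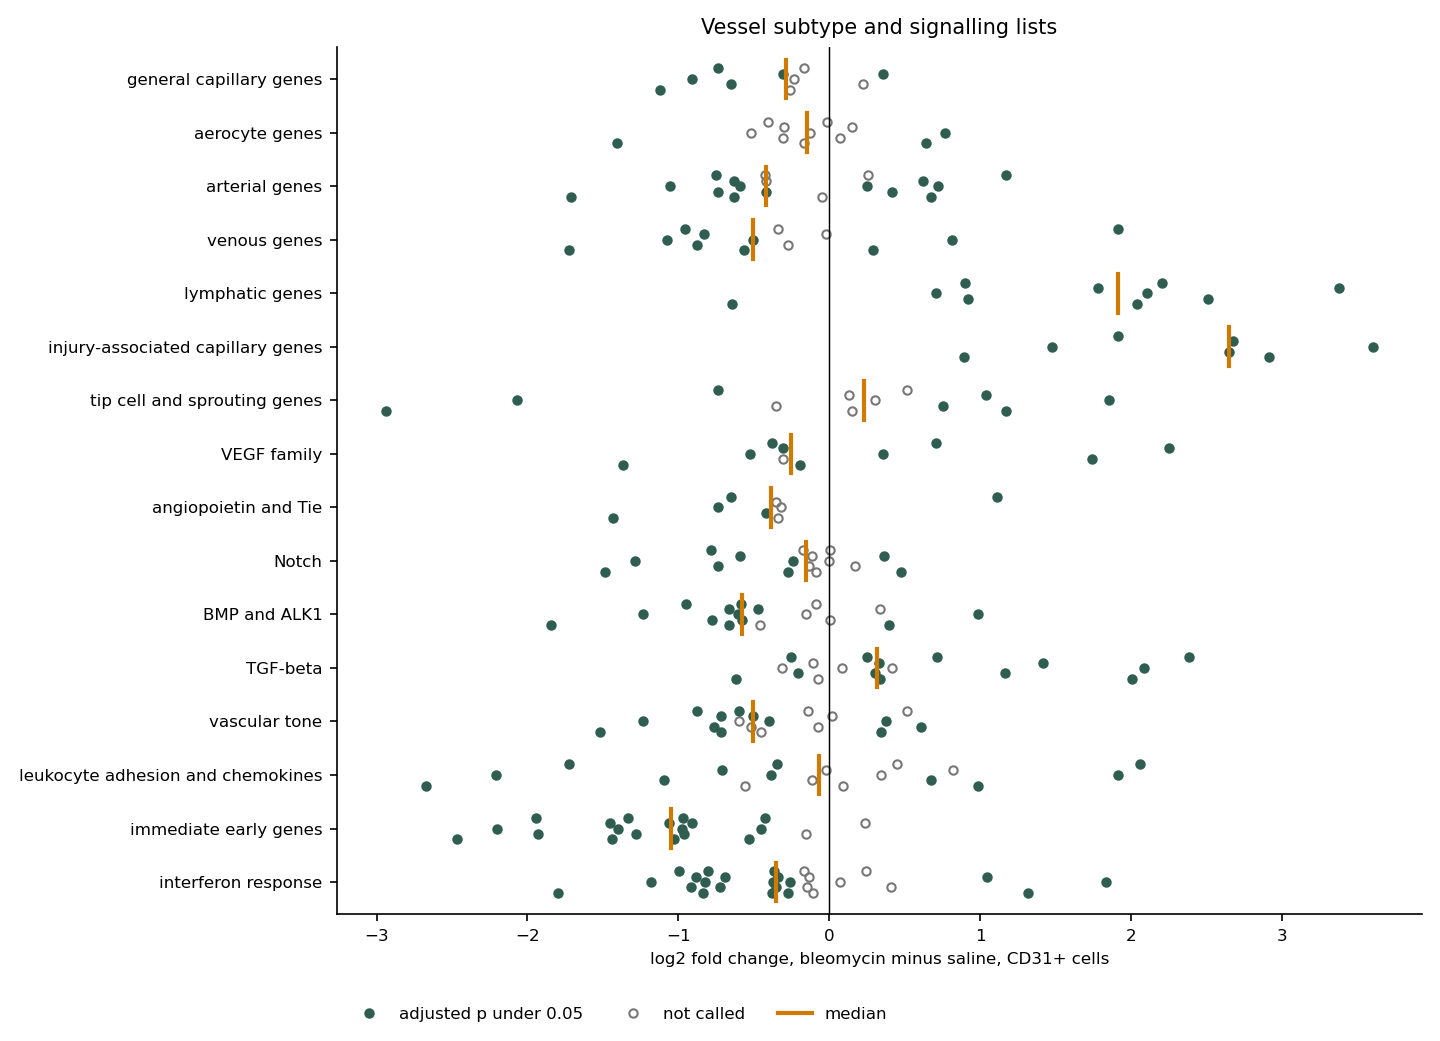
Log2 fold changes (bleomycin minus saline, CD31+ cells) of every tested member of 16 vessel subtype and signalling lists; each point is a gene, filled where the adjusted p was under 0.05 and open otherwise, and the bar is the list's median. All injury-associated capillary genes and 9 of 10 lymphatic genes lie on the higher side, and 18 of 20 immediate early genes and 10 of 17 BMP and ALK1 genes were called lower. The lists were chosen with earlier results of these data known.

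Genes of vascular tone fell more than they rose, 9 of 19 against 3 higher. Ece1, which matures endothelin, had 1014, 1132 and 1292 CPM after bleomycin, against 1628, 1807, 1867, 2056 and 1960.0 CPM after saline (-0.72 ± 0.08, adjusted p = 1.17e-05). Npr1, the receptor for atrial natriuretic peptide, had 440.4, 476 and 538 CPM after bleomycin, against 759, 864, 703, 793 and 847 CPM after saline (-0.72 ± 0.07, adjusted p = 6.19e-06). Neither gene overlapped between the groups. Ptgs2, the inducible cyclooxygenase, also fell (-1.52 ± 0.29, adjusted p = 0.00102), at 22.1% of its EpCAM+ level. Outside this list, Nos2, the inducible nitric oxide synthase, stood at 67.7, 104 and 123 CPM after bleomycin, against 21.2, 22.2, 26.0, 18.1 and 21.4 CPM after saline. It rose without overlap (2.16 ± 0.15, adjusted p = 1.84e-06), and CD31+ cells had the highest level of the 4 fractions. In the fit of 51 libraries the change of Nos2 was 2.18. Nos3, the endothelial enzyme and a member of the list, passed in the fit of 12 libraries (0.35 ± 0.10, adjusted p = 0.0109). It did not pass with the leukocyte covariate (adjusted p = 0.147) or in the fit of 51 (adjusted p = 0.215), where none of the 19 list members was called higher.

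Of 18 leukocyte adhesion and chemokine genes 4 rose and 7 fell (2 rose with the leukocyte covariate), against 24.2% higher and 24.6% lower over all genes. The share that rose was near that background. Ackr3, a scavenging receptor for CXCL12, had 384, 574 and 714 CPM after bleomycin, against 215, 276, 305, 349 and 247 CPM after saline and rose without overlap (0.99 ± 0.17, adjusted p = 4.31e-04). Cx3cl1, the membrane chemokine fractalkine, had 54.1, 94.2 and 160.5 CPM after bleomycin, against 250.5, 218, 204, 211 and 247 CPM after saline and fell without overlap (-1.10 ± 0.23, adjusted p = 0.0018). Its difference from the other fractions was -1.61 (adjusted p = 6.70e-07), and its call was lost with the leukocyte covariate (adjusted p = 0.0733). Ackr1, the venular chemokine transporter, rose (1.91 ± 0.44, adjusted p = 0.00331) and lost its call in the same way (adjusted p = 0.0702). Of 7 MHC class II genes, 0 passed edgeR's test, 0 had an unadjusted p under 0.05 and 0 passed DESeq2's test. However, 4 of them were called lower with the leukocyte covariate, 3 with the epithelial one and 2 without Bleomycin_CD31_621.

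Immediate early genes, which are induced within minutes of stimuli including tissue digestion, fell in 18 of 20 cases with a median log2 fold change of -1.05. Atf3 had 44.6, 64.9 and 133 CPM after bleomycin, against 464, 291, 577, 542 and 295 CPM after saline (-2.46 ± 0.28, adjusted p = 2.42e-05). Egr1 had 187, 354 and 661.2 CPM after bleomycin, against 1612, 1468, 2089, 2253 and 1242 CPM after saline (-2.20 ± 0.26, adjusted p = 3.79e-05). The groups did not overlap for either gene. Compared with the mean change of the other fractions, 0 of the 20 were below and 7 above, against 11.7% and 15.6% of all genes. In bleomycin CD31+ cells Atf3 stood at 29.4% of its CD45+ level and Egr1 at 21.6% of its triple-negative level. The inflammatory genes Il6 (-2.67 ± 0.39, adjusted p = 1.18e-04), Cxcl1 (-2.21 ± 0.40, adjusted p = 7.03e-04) and Nfkbiz, an atypical regulator of NF-kB (-2.02 ± 0.23, adjusted p = 3.11e-05), fell as well. Il6 and Cxcl1 in bleomycin CD31+ cells were at 2.78% and 4.45% of their triple-negative levels. Other NF-kB genes rose, such as Bcl3, with 98.7, 146 and 243 CPM after bleomycin, against 50.6, 56.0, 66.4, 65.9 and 44.4 CPM after saline and no overlap (1.53 ± 0.24, adjusted p = 2.73e-04), and Relb (0.68 ± 0.09, adjusted p = 5.85e-05).

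Interferon-response genes fell in CD31+ cells: 17 of 27 were lower and 3 higher, with a median log2 fold change of -0.35. Ifit1 and Ifit3 encode proteins that bind foreign RNA, and Gbp2 a GTPase that attacks intracellular pathogens. Their promoters are shown because the interferon-stimulated response element is the known site through which STAT and IRF factors drive these genes. Each run is the 200 bases before the start, from RefSeq on GRCm38.p6, 5′ to 3′ on the gene's strand, with matches in capitals to GAAA, any 2 bases and GAAA again, or to the reverse complement (TTTC, any 2 bases, TTTC). Ifit1 lies at chr19:34640689-34640888 (plus strand), Ifit3 at chr19:34583329-34583528 (plus) and Gbp2 at chr3:142620463-142620662 (plus).
Ifit1: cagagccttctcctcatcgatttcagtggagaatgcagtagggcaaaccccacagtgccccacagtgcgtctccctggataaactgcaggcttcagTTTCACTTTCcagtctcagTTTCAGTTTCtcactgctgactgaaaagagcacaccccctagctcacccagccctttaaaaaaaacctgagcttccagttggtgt
Ifit3: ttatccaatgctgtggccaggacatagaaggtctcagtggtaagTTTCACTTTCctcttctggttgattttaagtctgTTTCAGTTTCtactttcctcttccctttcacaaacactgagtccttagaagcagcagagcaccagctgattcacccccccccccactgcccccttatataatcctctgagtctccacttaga
Gbp2: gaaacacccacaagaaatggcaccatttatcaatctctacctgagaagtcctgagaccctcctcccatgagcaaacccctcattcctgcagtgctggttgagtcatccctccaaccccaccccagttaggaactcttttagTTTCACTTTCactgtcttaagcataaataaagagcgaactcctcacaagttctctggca

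The table of promoters held 18 of the 27 interferon genes. The motif was found in the 250 bases before the start of 10 of the 18 (55.6%), against 3.46% of all 27025 genes. Again a match describes letters and not occupancy.

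Ifit1 had 13.6, 14.4 and 17.6 CPM after bleomycin, against 22.8, 20.9, 28.9, 26.0 and 23.2 CPM after saline (-0.69 ± 0.09, adjusted p = 5.26e-05). Gbp2 had 118, 137 and 168 CPM after bleomycin, against 275, 221, 269, 248 and 257 CPM after saline (-0.88 ± 0.09, adjusted p = 7.08e-06). Iigp1, a GTPase of the same response, had 42.0, 60.3 and 76.8 CPM after bleomycin, against 214, 128, 303, 226 and 147 CPM after saline (-1.80 ± 0.22, adjusted p = 3.91e-05). For all 3, the highest bleomycin library lay below the lowest saline library. The members that rose were Mx1 (1.31 ± 0.27, adjusted p = 0.00159), Oas3 and Ifi27l2a, whose bleomycin CD31+ levels were 4.65%, 2.94% and 8.39% of those in CD45+ cells. The calls of Oas3 and Ifi27l2a were lost with the leukocyte covariate (adjusted p = 0.119 and 0.0769), and the number of higher members was 5 without Saline_CD31_651.

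For Ifit1 the averages in the other fractions ran the other way. Ifit1 averaged 10.4 ± 2.83 CPM in bleomycin and 1.03 ± 0.433 CPM in saline EpCAM+ cells, 18.1 ± 2.39 CPM in bleomycin and 8.11 ± 1.56 CPM in saline triple-negative cells, and 10.5 ± 1.96 CPM in bleomycin and 5.54 ± 1.55 CPM in saline CD45+ cells. The contrast with the mean of those fractions was -2.47 ± 0.19 for Ifit1 (adjusted p = 1.24e-13), -2.73 ± 0.26 for Iigp1 (adjusted p = 5.44e-11) and -1.07 ± 0.16 for Gbp2 (adjusted p = 7.46e-07). Over the list 21 of 27 genes were below the other fractions and 1 above, against 11.7% and 15.6% of all genes. The member above was Irf1, a regulator of the response (0.47, adjusted p = 0.0197), although it too fell within CD31+ cells (-0.83 ± 0.14, adjusted p = 3.63e-04).

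**Figure D3:**
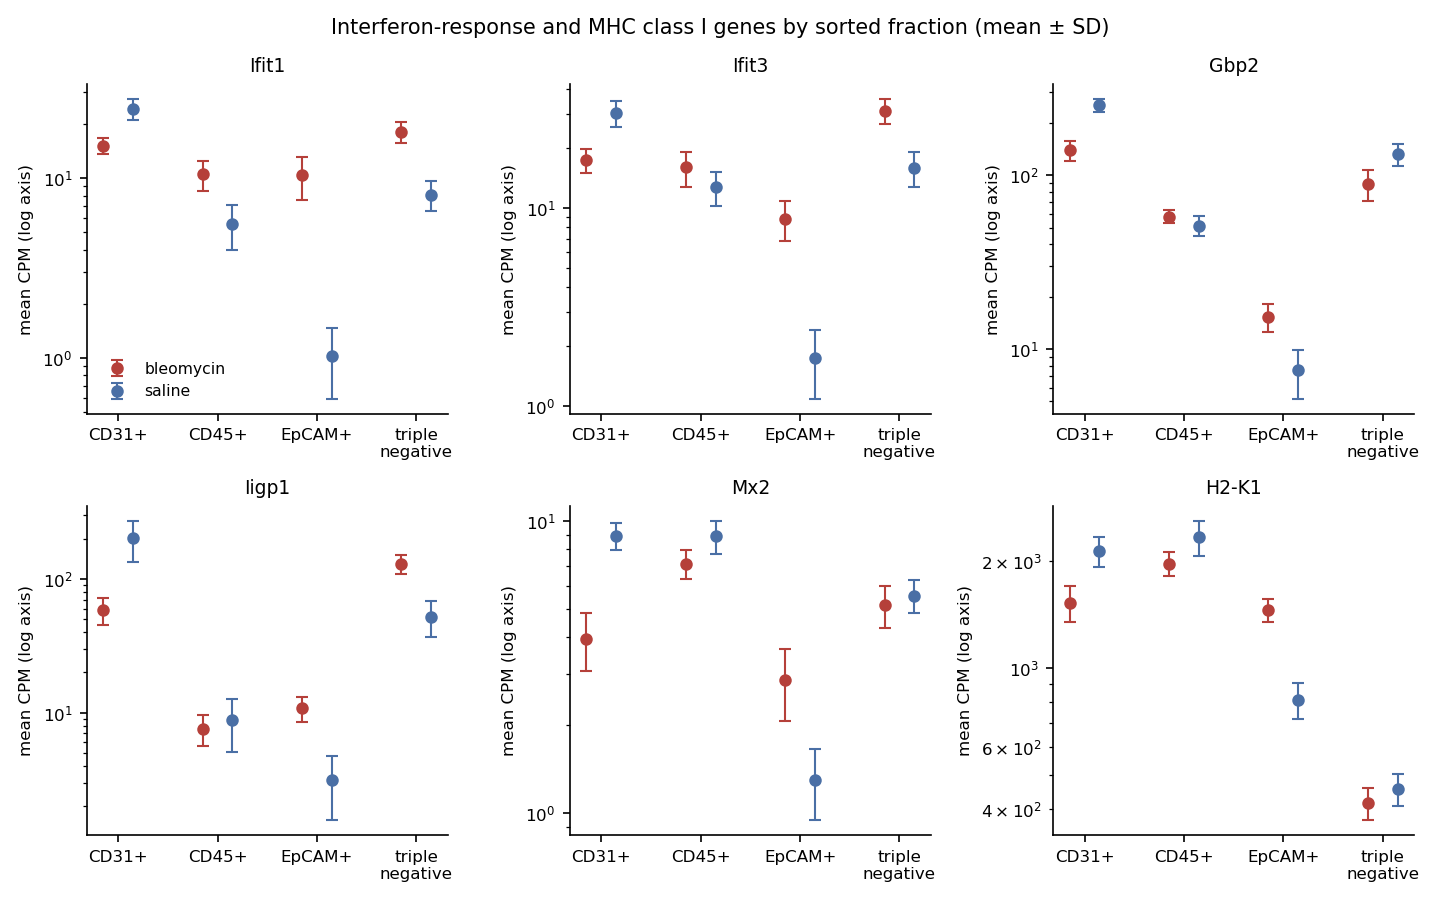
Mean level in CPM (log axis) of Ifit1, Ifit3, Gbp2, Iigp1, Mx2 and H2-K1 in each sorted fraction, bleomycin left of saline within a fraction; error bars are SD over libraries (7 and 5 for CD31+, 8 and 5 for each other fraction). In CD31+ cells all 6 genes are lower after bleomycin, with Ifit1 at 15.2 ± 1.51 CPM in bleomycin and 24.2 ± 3.18 CPM in saline cells, while in EpCAM+ cells all 6 are higher after bleomycin and in triple-negative cells Ifit1, Ifit3 and Iigp1 are.

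Of genes for antigen presentation by MHC class I, many of which interferon induces, most were lower. Of 10 members 9 fell, by small amounts (median -0.37). All 10 were below the mean change of the other fractions, against 11.7% of all genes. H2-K1, a class I heavy chain, had 1373, 1424 and 1819 CPM after bleomycin, against 2037, 2250.0, 2435, 2089 and 1898 CPM after saline (-0.50 ± 0.09, adjusted p = 4.95e-04). Tapbp, which loads peptides onto class I, had 384, 419 and 504 CPM after bleomycin, against 549, 571, 589, 547 and 556 CPM after saline (-0.37 ± 0.07, adjusted p = 0.00112). Neither overlapped between the groups, and their differences from other fractions were -0.63 and -0.58 (adjusted p = 4.02e-06 and 4.94e-08). With the leukocyte covariate 4 members were lower. The Ifit, Gbp, Oas and H2 families have near-identical members between which the counting could divide reads.

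Growth factors of the PDGF, EGF, FGF and IGF families were divided, 5 of 15 higher and 6 lower, against 3 and 3 with the leukocyte covariate. Over all genes 24.2% were higher and 24.6% lower. Fgfr1, an FGF receptor, had 46.6, 68.0 and 95.8 CPM after bleomycin, against 34.9, 35.9, 35.5, 27.5 and 26.9 CPM after saline (1.06 ± 0.16, adjusted p = 1.78e-04). Hbegf, an EGF receptor ligand, had 20.4, 24.1 and 33.6 CPM after bleomycin, against 49.1, 38.5, 49.9, 53.6 and 45.1 CPM after saline (-0.91 ± 0.12, adjusted p = 8.44e-05). The groups were separate for both, and both differed from the other fractions (1.19, adjusted p = 7.41e-07, and -1.23, adjusted p = 4.44e-04). Fgfr1 stood at 15.3% of its triple-negative level. Of 19 Wnt genes 2 rose and 5 fell, and 3 fell when Saline_CD31_649, Saline_CD31_650 or Saline_CD31_653 was left out. The leukocyte covariate left 3 higher and 2 lower. The Wnt antagonist Apcdd1, a gene of brain and eye endothelium in other work, had 14.03, 17.1 and 29.6 CPM after bleomycin, against 6.38, 8.09, 6.35, 6.34 and 6.43 CPM after saline (1.60 ± 0.19, adjusted p = 2.75e-05, no overlap).

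Basement membrane genes rose, 13 of 25 against 4 lower (median 0.71). With the epithelial covariate 8 were lower, and in the fit of 51 libraries 1. Col4a1, a chain of type IV collagen, had 4091, 5405 and 5677 CPM after bleomycin, against 1777, 2115, 2005, 2111 and 1905 CPM after saline (1.36 ± 0.10, adjusted p = 1.87e-06). Its bleomycin level was 154% of that in the next fraction. Lama1, a laminin chain, had 134, 306 and 702 CPM after bleomycin, against 22.4, 77.4, 76.4, 84.4 and 35.5 CPM after saline (2.50 ± 0.48, adjusted p = 0.0011), and it was one of the CD31-enriched genes. With the leukocyte covariate its change was 1.64. Neither gene's groups overlapped. Among 18 proteases and inhibitors tested, 13 rose and 1 fell. The largest rise was that of Mmp12 (6.90), also a macrophage marker, at 5.93% of its CD45+ level. The leukocyte covariate left 8 higher, and the gene that fell was not called in the fit of 51 libraries or with no filter. Adam15, a membrane protease with its highest level in CD31+ cells, rose (0.72 ± 0.13, adjusted p = 4.69e-04), and so did Adamts1, which cleaves versican (0.77 ± 0.17, adjusted p = 0.0022).

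Of 29 interstitial matrix genes 7 were higher and 4 lower, the higher share being near the background (4 higher with the leukocyte covariate and 2 lower in the fit of 51). Vcan, the proteoglycan versican, had 11.1, 19.8 and 33.7 CPM after bleomycin, against 4.94, 6.47, 2.97, 3.30 and 4.55 CPM after saline (2.30 ± 0.29, adjusted p = 5.98e-05, no overlap), at 7.94% of the highest other fraction. Its difference from the other fractions was 1.99 ± 0.39 (adjusted p = 1.03e-04). Of 11 genes tested from a list of mesenchymal transition, 4 rose and 3 fell, against 24.2% and 24.6% of all genes. With the leukocyte covariate 2 were higher. The contractile genes Acta2 (-1.86 ± 0.36, adjusted p = 0.00117) and Tagln (-1.14 ± 0.25, adjusted p = 0.00247) were among those that fell, at 1.48% and 2.47% of their triple-negative levels. Vim, a filament protein that endothelial cells also make, rose (0.37 ± 0.09, adjusted p = 0.00539) but was not called in the fit of 51 libraries (adjusted p = 0.0583).

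Junction genes were on both sides, 5 of 18 higher and 4 lower (2 and 2 with the leukocyte covariate, 3 and 2 in the fit of 51 libraries). Those shares were near the 24.2% and 24.6% of all genes. Tjp1, the tight junction scaffold ZO-1, had 718, 779.6 and 868 CPM after bleomycin, against 1038, 1030.0, 1030.0, 1187 and 1083 CPM after saline and fell (-0.44 ± 0.07, adjusted p = 1.48e-04). Gja1, the gap junction protein connexin 43, had 37.9, 53.8 and 104 CPM after bleomycin, against 28.3, 16.2, 22.0, 13.1 and 21.8 CPM after saline and rose (1.63 ± 0.31, adjusted p = 0.00101). Both changes came without overlap, and Gja1 stood at 15.6% of its EpCAM+ level. Of 14 glycocalyx genes 6 rose and 1 fell (median log2 fold change 0.21). With the leukocyte covariate 1 rose and 3 fell, and with the epithelial one 3 rose and 2 fell. Leaving out single libraries gave 1 to 2 lower members. The member that fell, Hs3st1, adds the antithrombin-binding sulphate to heparan sulphate. It had 63.0, 84.7 and 98.9 CPM after bleomycin, against 179, 155, 158, 177 and 175 CPM after saline, without overlap (-1.04 ± 0.10, adjusted p = 6.18e-06). Of 14 coagulation genes 7 rose and 1 fell, with 4 higher under the leukocyte covariate and 4 in the fit of 51 libraries. The lower count was 0 in the fit of 51 libraries, 2 with the epithelial covariate, with the column block or without Bleomycin_CD31_621, and 3 without Bleomycin_CD31_624 or Saline_CD31_649. Anxa2, a plasminogen co-receptor, rose (1.04 ± 0.13, adjusted p = 3.12e-05), and so did F8, coagulation factor VIII, which lung endothelium makes (0.94 ± 0.24, adjusted p = 0.00601).

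Glycolysis genes were mostly higher, 12 of 22 against 3 lower, but 3 were called higher with the leukocyte covariate and 6 with the epithelial one. Ldha, which makes lactate, had 111, 167 and 196 CPM after bleomycin, against 62.0, 77.1, 77.7, 77.9 and 63.6 CPM after saline (1.16 ± 0.14, adjusted p = 3.91e-05). Aldoc, an aldolase, had 1.60, 3.84 and 6.79 CPM after bleomycin, against 0.226, 0.344, 0.522, 0.125 and 0.209 CPM after saline (3.77 ± 0.42, adjusted p = 1.75e-05). Slc2a1, the glucose transporter GLUT1, had 22.8, 35.98 and 50.3 CPM after bleomycin, against 20.7, 19.2, 19.1, 17.3 and 21.3 CPM after saline (0.87 ± 0.16, adjusted p = 8.03e-04). All 3 rose without overlap, and with the covariate they were still called, Aldoc at 2.87. Aldoc stood at 8.82% of its CD45+ level. They also exceeded the mean change of the other fractions (0.55, 2.78 and 0.86, adjusted p = 5.15e-04, 2.47e-07 and 9.14e-06). Slc2a3, the transporter GLUT3, fell (-2.66 ± 0.33, adjusted p = 4.30e-05) at 2.42% of its CD45+ level, and Gapdh fell as well (-1.49 ± 0.15, adjusted p = 8.57e-06), a gene with many processed pseudogenes whose reads the counting could divide.

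Of 15 hypoxia-response genes 6 rose and 3 fell, against 24.2% and 24.6% of all genes. Hif1a, the oxygen-sensing transcription factor, had 98.2, 149 and 174 CPM after bleomycin, against 61.0, 59.1, 58.8, 61.7 and 59.2 CPM after saline (1.24 ± 0.12, adjusted p = 6.89e-06). Ankrd37, a target gene of HIF-1, had 11.97, 69.4 and 92.7 CPM after bleomycin, against 7.21, 6.17, 11.6, 10.3 and 8.48 CPM after saline (2.87 ± 0.41, adjusted p = 1.58e-04). Both rose without overlap, and Ankrd37 by 3.20 ± 0.33 more than in the other fractions (adjusted p = 2.34e-10). Epas1, the HIF-2 subunit typical of endothelium, fell in the fit of 12 libraries (-0.42 ± 0.09, adjusted p = 0.00182), but not with the leukocyte covariate (adjusted p = 0.0513) or in the fit of 51 (adjusted p = 0.0746).

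In mitochondria, 14 of 22 nuclear genes of the respiratory chain rose, by a median of 0.18, and 12 of 23 citrate cycle genes rose while none fell (median 0.14). With the leukocyte covariate 9 and 7 were higher. Of 8 tested genes of the mitochondrial genome 7 rose (median 0.63). COX1, a subunit of cytochrome oxidase, had 966, 1152 and 1298 CPM after bleomycin, against 549, 678, 659.9, 706 and 646.6 CPM after saline, without overlap (0.80 ± 0.08, adjusted p = 1.00e-05). Mitochondrial mRNAs held 0.484 to 0.687% of counts after bleomycin and 0.311 to 0.400% after saline.

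Fatty acid uptake and oxidation, a main fuel route of endothelium, was divided, with 9 of 30 genes higher and 9 lower (2 higher with the leukocyte covariate and 3 with the epithelial one). The shares over all genes were 24.2% and 24.6%. Ppargc1a, which drives mitochondrial biogenesis, had 1.17, 1.83 and 2.21 CPM after bleomycin, against 5.51, 3.13, 3.29, 4.09 and 5.05 CPM after saline (-1.30 ± 0.21, adjusted p = 2.61e-04). Cpt1a, the gatekeeper of mitochondrial fatty acid entry, had 145, 181 and 195 CPM after bleomycin, against 182, 212, 218, 234 and 240.1 CPM after saline (-0.33 ± 0.09, adjusted p = 0.00767). Ppargc1a fell without overlap, at 12.8% of its EpCAM+ level, and Cpt1a fell with overlapping groups. Of 15 fatty acid synthesis genes 5 rose and 4 (Acacb, Elovl5, Fads2 and Thrsp) fell. With the leukocyte covariate 1 rose and 2 fell, and with the epithelial one 1 rose. Among those that rose, Scd1, a fatty acid desaturase, changed by 2.76 ± 0.79 (adjusted p = 0.0123) over all libraries and by 1.56 without Bleomycin_CD31_621. The bleomycin level of Scd1 was 2.95% of that in EpCAM+ cells. It was not called with the leukocyte covariate (0.70, adjusted p = 0.348) or with the epithelial one (0.60, adjusted p = 0.189), and DESeq2 gave 1.52. Scd2, its paralog, rose by 0.70 ± 0.13 (adjusted p = 6.06e-04), at 22.7% of its EpCAM+ level. Of 20 sterol synthesis genes 10 rose and 1 fell (5 rose with the leukocyte covariate and 6 with the epithelial one). Cyp51, a demethylase of the pathway, had 20.9, 24.7 and 30.7 CPM after bleomycin, against 16.4, 13.2, 14.9, 13.0 and 15.9 CPM after saline and rose without overlap (0.83 ± 0.11, adjusted p = 7.76e-05).

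Serine and one-carbon metabolism, which feeds nucleotide synthesis, was higher: 7 of 12 genes rose and 1 fell, the count that fell being 0 with the leukocyte covariate and in the fit of 51 libraries. Psat1, of serine synthesis, had 10.1, 15.9 and 30.0 CPM after bleomycin, against 2.26, 1.48, 1.33, 1.67 and 3.67 CPM after saline (3.08 ± 0.33, adjusted p = 1.72e-05). Mthfd2, the mitochondrial folate enzyme, had 11.8, 16.4 and 23.8 CPM after bleomycin, against 3.06, 1.48, 1.65, 2.29 and 6.89 CPM after saline (2.46 ± 0.36, adjusted p = 1.60e-04). The groups overlapped for neither, and both exceeded the other fractions (1.92 and 1.47, adjusted p = 1.31e-07 and 5.38e-05). Of 17 nucleotide synthesis genes 12 rose and 3 fell, and 0 were called lower with either covariate and 1 in the fit of 51 libraries. Rrm2, the regulated subunit of ribonucleotide reductase, had 17.3, 28.5 and 54.6 CPM after bleomycin, against 1.77, 2.13, 2.25, 1.88 and 2.17 CPM after saline, with a wide gap (3.99 ± 0.30, adjusted p = 2.00e-06). Among amino acid transporters, Slc7a5, which carries leucine, had 6.65, 12.5 and 16.6 CPM after bleomycin, against 3.25, 2.17, 2.97, 3.004 and 5.51 CPM after saline and rose without overlap (1.84 ± 0.25, adjusted p = 7.75e-05), at 22.0% of its triple-negative level.

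**Figure D4:**
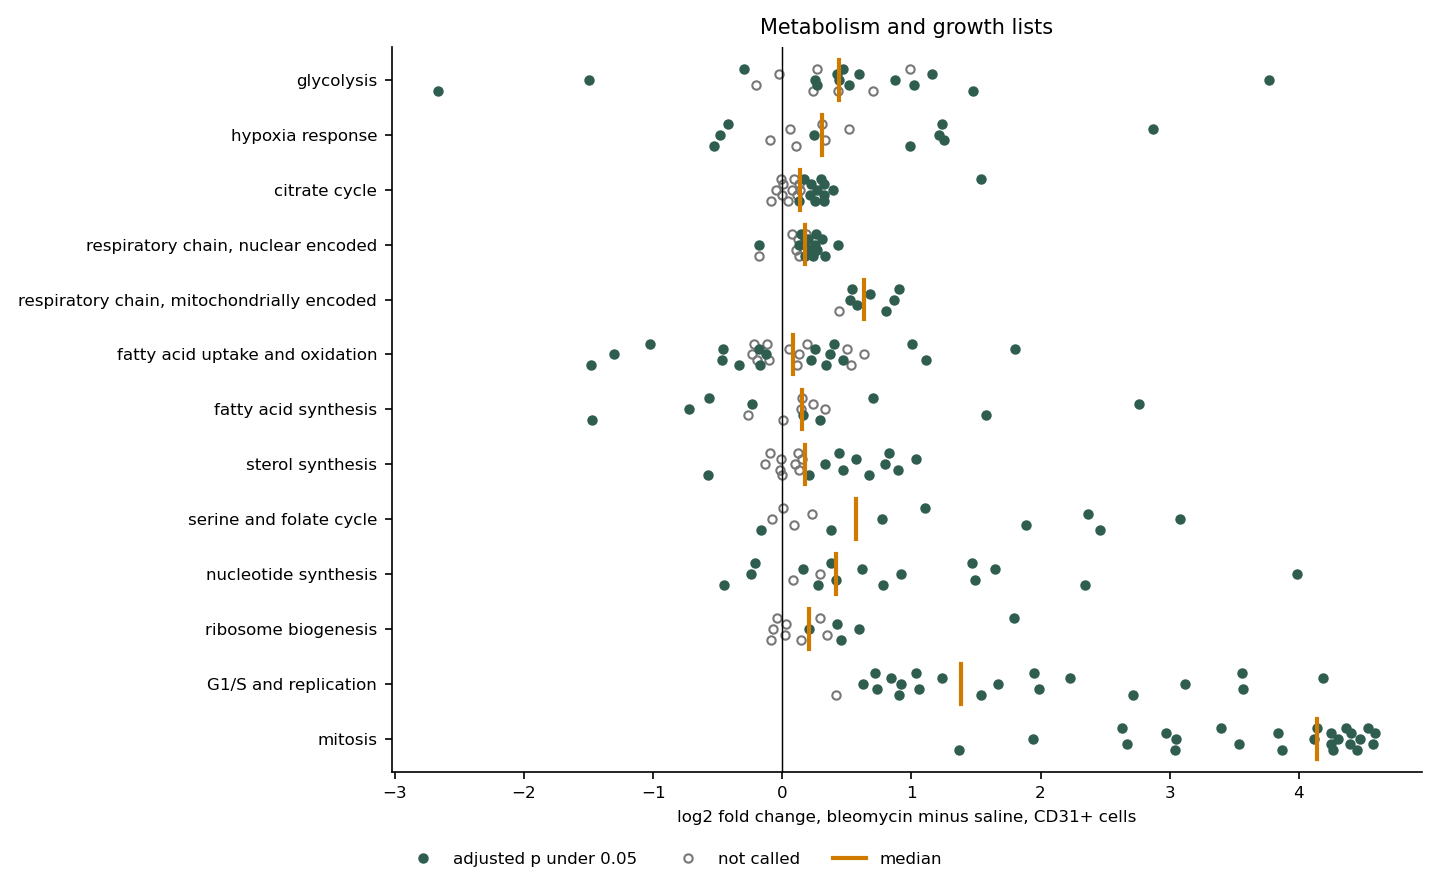
Log2 fold changes (bleomycin minus saline, CD31+ cells) of every tested member of 13 metabolism and growth lists; each point is a gene, filled where the adjusted p was under 0.05 and open otherwise, and the bar is the list's median. The mitosis list lies farthest to the right (median 4.14). Fatty acid uptake and oxidation holds 9 higher and 9 lower genes of 30, against 24.2% and 24.6% of all genes.

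Among CD31-enriched genes, those with the largest changes by the naming rule (at least 5 CPM in one group and no overlap) were not all genes of the lists. Enrichment was taken over the mean of both treatments. In bleomycin libraries alone Ppbp (0.959 times the next fraction) and Enpp6 (1.95) were under the 4-fold level. In saline libraries alone Ankrd37 (1.25 times the next fraction), 4631405J19Rik (1.67), Mest (2.74), Hapln1 (2.62), Hoxd8 (2.85), Klhl4 (3.84) and Adgrg3 (2.18) were under it. Such genes entered through the group in which they are high, so their number is no result. Mest, an imprinted gene of the growing embryo, had 96.4, 197 and 216 CPM after bleomycin, against 29.6, 41.6, 37.0, 39.3 and 29.3 CPM after saline (2.29 ± 0.22, adjusted p = 7.85e-06). Hapln1, which links hyaluronan to proteoglycans, had 4.81, 7.07 and 14.6 CPM after bleomycin, against 1.51, 1.07, 1.25, 1.13 and 0.752 CPM after saline (2.82 ± 0.28, adjusted p = 6.89e-06). Hoxd8 and Hoxd9, the second named by the contrast between fractions, are homeobox genes on chromosome 2 and both rose (2.49 ± 0.37 and 2.40 ± 0.37, adjusted p = 1.63e-04 and 2.03e-04). Hoxd8 had 3.44, 5.49 and 10.5 CPM after bleomycin, against 1.47, 1.58, 1.33, 0.584 and 0.334 CPM after saline. Sh3gl3, an endophilin of membrane curvature (2.68 ± 0.29, adjusted p = 1.32e-05), and Clca3a1, a calcium-regulated chloride channel family member (2.31 ± 0.28, adjusted p = 3.86e-05), rose too. The other genes that rose by this rule were Nts, which encodes the peptide neurotensin (3.38), the cytoplasmic adaptor Klhl4 (1.89), 4631405J19Rik (2.01) and Tmem252 (1.97), beside Ankrd37, Prox1, Lama1, Mmrn1, Nos2 and Reln given above.

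On the lower side, Ankrd63, an ankyrin repeat gene, had 13.7, 18.9 and 24.3 CPM after bleomycin, against 102, 127, 98.9, 107 and 136 CPM after saline (-2.64 ± 0.14, adjusted p = 1.00e-06). Ces2b, a carboxylesterase, had 2.19, 3.87 and 5.80 CPM after bleomycin, against 13.9, 16.9, 15.6, 18.4 and 12.9 CPM after saline (-2.04 ± 0.19, adjusted p = 4.22e-06). Sox11, a transcription factor of progenitors, had 12.2, 28.4 and 40.0 CPM after bleomycin, against 95.8, 86.0, 70.0, 78.6 and 106 CPM after saline (-1.73 ± 0.25, adjusted p = 1.44e-04). All bleomycin libraries were below all saline libraries for these 3. Cytl1, a small secreted protein (-2.09), Ppp2r2c, a phosphatase subunit (-1.94), Enpp6, a choline phosphodiesterase (-1.76), Olfm2, an olfactomedin (-1.66), Esr2, the estrogen receptor beta (-1.64), Fam71f2 (-1.69), Glb1l3 (-1.68) and C1qtnf9 (-1.65, not called with the leukocyte covariate at an adjusted p of 0.0798) also fell, together with the predicted genes Gm1667 (-1.95) and Gm13387 (-1.66). Tubb1 (-4.77) and Ppbp (-4.30), which met the same rule, are platelet genes, described with the carry-over lists. For Mest, the change exceeded that of the other fractions (2.53 ± 0.19, adjusted p = 7.46e-14), and for Olfm2 it was below (-1.93 ± 0.28, adjusted p = 8.88e-07). The same contrast was 2.49 for Hoxd9 (adjusted p = 0.017), 1.80 for the adhesion receptor Adgrg3 (adjusted p = 3.26e-05) and -1.93 for Ppp2r2c (adjusted p = 3.81e-06), and in these CD31-enriched genes it also holds the level of endothelial RNA in the other fractions.

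Transcripts of other cell types were present in all CD31+ libraries, and several lists moved with bleomycin. The summed level of 18 monocyte and macrophage markers was 571 to 5009 CPM after bleomycin and 145 to 497 CPM after saline, without overlap. Against the level in CD45+ cells of the same treatment, the median share of this sum was 4.20% after bleomycin and 3.03% after saline. Taken marker by marker, the median share was 3.73% after bleomycin and 0.918% after saline. Shares marker by marker, here and below, come from group means, in which a high library weighs more than in a median over libraries. Of the 18 markers 16 rose, such as C1qa, a complement gene of macrophages, with 6.13, 24.2 and 83.9 CPM after bleomycin, against 1.62, 1.41, 2.25, 0.709 and 1.38 CPM after saline and no overlap (4.45 ± 0.76, adjusted p = 5.36e-04). C1qa stood at 2.44% of its CD45+ level, and with the leukocyte covariate its change was 2.06. The summed level of the 13 general leukocyte markers, given above, was a median of 3.08% of the CD45+ level after bleomycin and 1.58% after saline, and marker by marker the medians were 2.30% after bleomycin and 0.772% after saline. Lcp1, an actin-bundling protein of leukocytes, made up much of that sum, with a mean of 186 CPM after bleomycin and 122 CPM after saline.

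Neutrophil markers summed to 3.05 to 18.4 CPM after bleomycin and 2.30 to 12.5 CPM after saline, and T cell markers to 9.67 to 16.5 CPM after bleomycin and 7.15 to 9.89 CPM after saline. Of the markers of other cell types in the lists, Sln, of cardiac muscle, was at 0 in all bleomycin CD31+ libraries. Alveolar type II markers summed to 833 to 10470 CPM after bleomycin and 342 to 1395 CPM after saline, and the highest value was that of Bleomycin_CD31_621. Their share of the EpCAM+ level had a median over libraries of 1.24% after bleomycin and 0.497% after saline. Marker by marker, from group means, the median was 2.51% after bleomycin and 0.369% after saline. Those bleomycin means are raised by Bleomycin_CD31_621, at 10470 CPM against 833 to 1795 CPM in the other bleomycin libraries. Without that library 2 of the 11 type II markers were called higher, against 5 with it. The count was 1 to 3 without Saline_CD31_649, Saline_CD31_650, Saline_CD31_652 or Saline_CD31_653 and 10 in the fit of 51 libraries or with the column block. With no filter it was 1, and with the leukocyte or the epithelial covariate it was 0.

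Of 10 smooth muscle markers 8 fell, such as Myh11, the smooth muscle myosin, with 7.17, 11.5 and 15.8 CPM after bleomycin, against 55.5, 138, 34.5, 63.4 and 44.1 CPM after saline and no overlap (-2.51 ± 0.31, adjusted p = 5.25e-05). Myh11 stood at 2.51% of its triple-negative level. Smtn, which made up much of the list's sum, rose, with a mean of 186 CPM after bleomycin and 103 CPM after saline. It stood at 67.8% of its triple-negative level. Summed over the 10 markers, levels overlapped, at 208.3 to 297.2 CPM after bleomycin and 221.5 to 648.7 CPM after saline. Of 16 fibroblast markers 10 fell, and their summed level was a median of 1.01% of the triple-negative level after bleomycin and 1.80% after saline. The sums overlapped, at 286 to 1384 CPM after bleomycin and 395 to 983 CPM after saline, and marker by marker the medians were 1.36% after bleomycin and 1.56% after saline. The collagen genes Col1a1 and Col3a1 did not pass the test: Col1a1 averaged 198 CPM after bleomycin and 98.6 CPM after saline, and Col3a1 245 CPM after bleomycin and 169 CPM after saline. Platelet markers fell in 11 of 13 tested cases, and their sum was 51.5 to 71.6 CPM after bleomycin and 68.4 to 210.4 CPM after saline. Saline_CD31_651 was the lowest saline library for platelet genes.

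**Figure D5:**
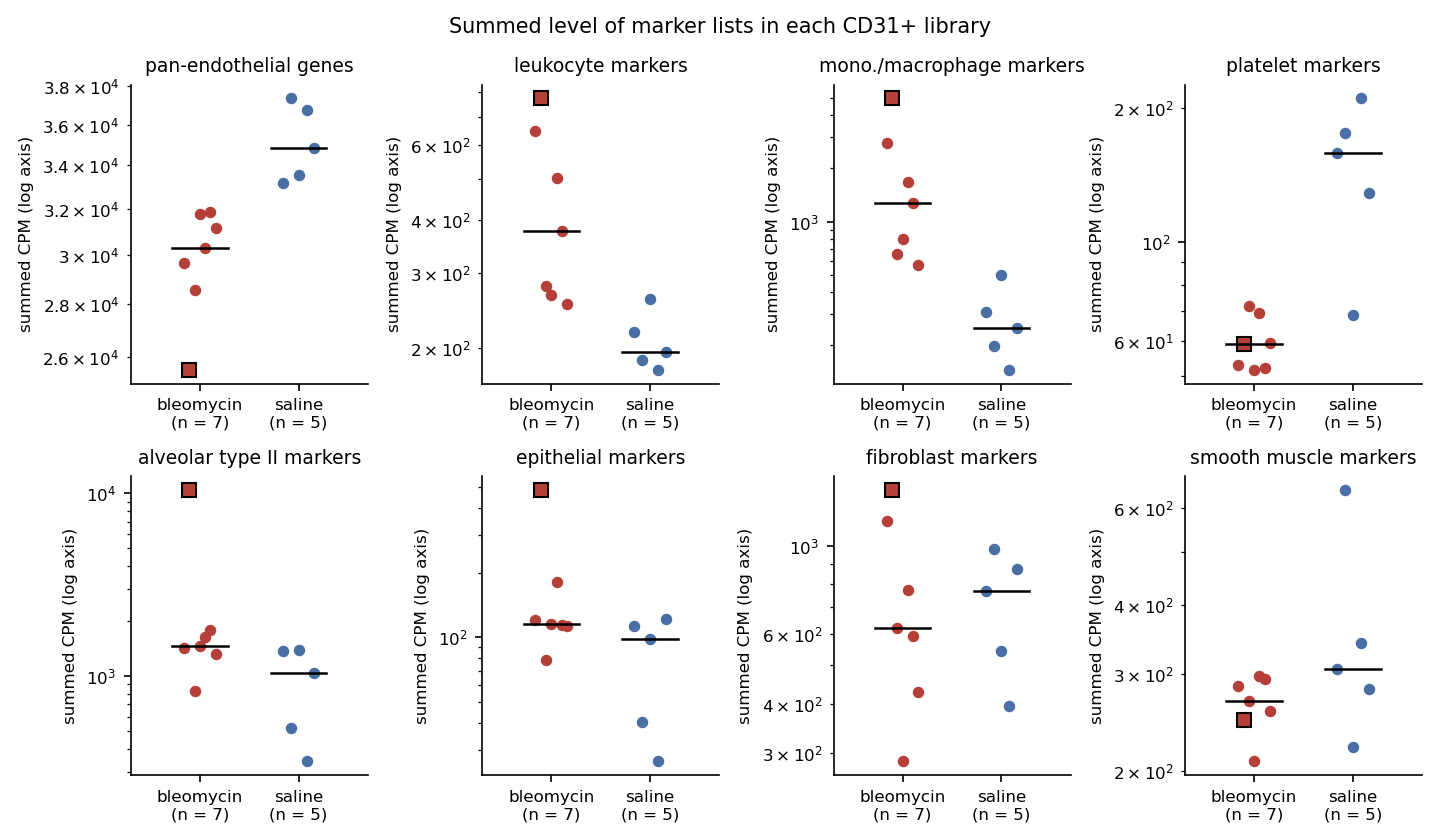
Summed CPM (log axis) of marker lists in each CD31+ library, bleomycin left of saline; points are libraries, bars are medians and Bleomycin_CD31_621 is drawn as a square. The macrophage list separates the groups, the alveolar type II list has its highest point in Bleomycin_CD31_621, and the pan-endothelial list is lower in every bleomycin library.

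These lists bear on which of the changed genes have their main level outside CD31+ cells. Of the 1137 genes at least 2-fold higher after bleomycin (7.07% of those tested), 459 (40.4%) were in bleomycin CD31+ cells at under 10% of their level in another bleomycin fraction, which was CD45+ for 234, EpCAM+ for 177 and triple-negative for 48. Of the 713 genes at least 2-fold lower (4.44% of those tested), 188 (26.4%) were under 10% in the saline libraries, 163 of them highest in triple-negative cells. The share under 10% was not computed over all tested genes, so neither percentage can be read against a background. Among the largest changes without regard to enrichment, Mmp12, Spp1, Retnla and Trem2, most of them macrophage genes, were of this kind, with bleomycin CD31+ levels of 5.93%, 5.80%, 4.61% and 3.56% of the highest other fraction. On the lower side, genes highest in triple-negative cells were Aoc3 (-3.22), Hmcn2 (-2.99), Gpc6 (-2.84), Lmod1 (-2.81) and Actc1 (-3.24). Fam71a (-3.14) and Iqcn (-3.08) met the same rule. Without Saline_CD31_650 the change of Hmcn2 was -2.35. Other large rises were in genes of dividing cells, as for Ckap2, with 15.9, 29.1 and 45.1 CPM after bleomycin, against 1.06, 0.895, 0.764, 1.08 and 1.25 CPM after saline and no overlap (4.91 ± 0.31, adjusted p = 1.84e-06), for Pbk (4.89), Melk (4.84), Nuf2 (4.77) and Hrob (4.83), which take part in mitosis or DNA repair. Kcnt1, a potassium channel, had 2.18, 4.66 and 17.7 CPM after bleomycin, against 0.453, 0.0689, 0.0402, 0.0417 and 0 CPM after saline, where it was close to 0. It rose (5.62 ± 0.79, adjusted p = 1.21e-04), and without Saline_CD31_649 its fitted change was 7.16. The part of carried-over RNA in these changes was not tested beyond the covariate fits.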

How the data were processed

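Lung cells were sorted into 4 fractions, and total RNA (Qiagen RNeasy) was made into Illumina TruSeq Stranded Total RNA libraries, per the labels' protocols. The authors deposited whole-number counts per gene for 51 libraries, which were used as deposited. The genome build was GRCm38 per the submitters' processing notes, and the aligner, counting program and strand setting are not given in the sources used here. The table held 36528 Entrez gene IDs, of which 31049 matched a symbol in RefSeq. Totals were 22452175 to 29746594 counts in the 12 CD31+ libraries.

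Bleomycin and saline CD31+ libraries were compared with edgeR 4.0.16 in R 4.3.3 (filterByExpr, TMM, robust quasi-likelihood test, Benjamini-Hochberg adjustment over 16075 genes, threshold 0.05). Log2 fold changes carry standard errors, and CPM values are TMM-scaled. Replicates are libraries that the labels name as separate samples. The contrast with the other fractions came from 1 fit of all 51 libraries. The fits were also run on simulated counts. There far fewer genes were changed than were called here, and RNA of other cell types did not differ between groups. That run therefore does not cover carry-over. Alternatives were DESeq2's size factors, the DESeq2 1.42.0 test, no filter, each library left out, leukocyte or epithelial marker levels (mean log2 of CPM plus 0.5) as covariates, the column block of the table, and the fit of 51 libraries. Promoter sequences came from RefSeq on GRCm38.p6.

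The genes and the 71 gene lists were chosen with earlier results of these data known. Named genes come from those lists, or are the 15 largest changes each way among CD31-enriched genes (at least 4 times the level of every other fraction, by the mean of both treatments), the 10 largest each way without that condition (both with no overlap and at least 5 CPM in one group), or the 10 largest each way among CD31-enriched genes in the contrast between fractions.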

Additional observations from a re-analysis of the deposited data

Results flagged for a closer look

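Of 212 groups of values tested for a library far from the others, 16 held one; chance gives about 1 in 20 such groups. In Bleomycin_CD31_622, Prox1 (115.5 CPM), Mmrn1 (538 CPM), Flt4 (736.2 CPM), Nrp2 (442.3 CPM) and Kcnt1 (17.66 CPM) lay far above the other bleomycin CD31+ libraries. In Bleomycin_CD31_621 the same held for the summed levels of alveolar type II markers (10470 CPM), club cell markers (3708 CPM) and epithelial markers (486 CPM). Bmpr2 was high in Bleomycin_CD31_623 (1530.0 CPM) and Smad9 in Bleomycin_CD31_626 (6.62 CPM). Among saline libraries, Saline_CD31_650 was far above the others for Myh11 (137.8 CPM), Apcdd1 (8.09 CPM) and the sum of smooth muscle markers (648.7 CPM). Saline_CD31_651 was high for the sum of alveolar macrophage markers (104.9 CPM), Saline_CD31_653 for Bmp6 (788.5 CPM) and Saline_CD31_649 for Kcnt1 (0.453 CPM).

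A chosen set of named genes was checked for a bleomycin effect in CD31+ cells unlike the mean effect of the other 3 fractions. Each difference is the CD31+ effect minus that mean, on the log2 scale. In the fit of 51 libraries 36 of the set differed, at adjusted p values (edgeR) between 7.46e-14 and 0.0302. Over all 19841 genes 15.6% were above and 11.7% below. The set was chosen with earlier results of these data known, so its count is no result. Named genes outside the set passed too, such as Prox1 (1.88, adjusted p = 3.33e-06) and Esm1 (-2.31, adjusted p = 1.46e-07), so the list below is not complete. The CD31+ effect was higher for Ankrd37 (3.2), Myc (3.01), Vwa1 (2.95), Aldoc (2.78), Cd276 (2.65), Mest (2.53), Hoxd9 (2.49), Bub1 (2.43), Prc1 (2.4), Ntrk2 (2.33) and Vcan (1.99). It was higher by a smaller margin for Psat1 (1.92), Adgrg3 (1.8), Mthfd2 (1.47), Itga9 (1.32), Fgfr1 (1.19), Smad1 (0.881), Slc2a1 (0.863), Pecam1 (0.843), Smad5 (0.59), Ldha (0.547) and Irf1 (0.472). The CD31+ effect was lower for Iigp1 (-2.73), Ifit1 (-2.47), Cdkn2b (-2.39), Vcam1 (-2.18), Olfm2 (-1.93), Ppp2r2c (-1.93), Cx3cl1 (-1.61), Phlda3 (-1.54), Hbegf (-1.23), Smad9 (-1.13), Gbp2 (-1.07), Aen (-0.745), H2-K1 (-0.634) and Tapbp (-0.581).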

How the results depend on the processing

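No paired analysis was possible because bleomycin and saline libraries share no replicate number. With 12 libraries, 3890 genes were higher and 3948 lower. Leaving out each library in turn gave 3463 to 4140 higher and 3417 to 3911 lower genes, and the contrast with the other fractions gave 2488 to 3269 genes above and 1985 to 2393 below. The leukocyte covariate gave 2340 higher and 2242 lower genes, and the cause was not tested. DESeq2's size factors gave 4074 and 3772, no filter 4055 and 3531, the epithelial covariate 3051 and 3005, the column block of the table (an alternative chosen after seeing the data) 3988 and 3829, the fit of 51 libraries 4463 and 3608, and DESeq2's test 4294 and 3922. Of 174 named genes, 10 lost their call with the leukocyte covariate, 1 with the epithelial one and 6 in the fit of 51 libraries, and 1, Kdr, gained one without Bleomycin_CD31_626. With DESeq2's size factors, no filter, the column block or DESeq2's test none of the 174 changed its call or direction. Uncalled genes turned direction with the leukocyte covariate (log2 fold change of Pecam1 0.0561, of Cdh5 0.0388 and of Erg 0.0595) and with the epithelial one (Pecam1 0.0611, Cdh5 0.0290). Libraries of different fractions were treated as independent, and no label ties them to an animal. The share of each change that comes from RNA of other sorted cells was not tested.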
